A study of Mus musculus with 18 samples.

Results

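The 50 genes described here encode the machinery of the lysosome, the acidic compartment in which cells break down proteins, sugars and lipids, and were taken by symbol from the 36172 genes of the expression table. They comprise 24 hydrolases and other proteins of the lysosomal lumen, 9 proteins of its membrane, the transcription factor Tfeb and 16 subunits or accessory proteins of the vacuolar proton pump (V-ATPase). All mice were Cx3cr1-Cre/Ert2+; NuTRAP+, that is, they carried a tamoxifen-inducible Cre recombinase under the control of Cx3cr1 and a reporter that places EGFP on ribosomes after recombination. All were given tamoxifen at about 3 months of age and were injected intraperitoneally 3 to 4 weeks later with 5 mg/kg LPS (lipopolysaccharide, a bacterial cell wall component that sets off inflammation) or with PBS, the vehicle, and a brain hemisphere was homogenised 24 h after the injection. RNA was sequenced from the whole homogenate (input) and from the ribosomes pulled down with an anti-GFP antibody (positive fraction, by translating ribosome affinity purification, TRAP). LPS was given to 5 animals (4 female, 1 male) and PBS to 4 (2 female, 2 male). Cre driven by Cx3cr1 is active in microglia, the resident macrophages of the brain, and also in other cells that express Cx3cr1, such as macrophages at the brain's borders.

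Lysosomal enzymes are made as precursors, sorted to the lysosome and matured at low pH, which the proton pump maintains by coupling ATP hydrolysis in its V1 sector to proton transport through its membrane sector V0. Cathepsins are the main lysosomal proteases, glycosidases and lipid hydrolases take apart sugar chains and lipids, and membrane proteins such as LAMP1 and LAMP2 line the compartment. Tfeb encodes a transcription factor known to bind the CLEAR element found near many lysosomal genes. In microglia the pathway serves the digestion of engulfed debris, and several neurodegenerative storage diseases come from mutations in its genes.

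Of 18 libraries, 17 were used, with totals of 22968939 to 35123345 estimated read counts. The input library of the LPS animal numbered 271 held 1252 counts in all and was left out, so Input PBS, Input LPS and Positive PBS had 4 libraries each and Positive LPS had 5. Values are normalised counts, that is, counts divided by a size factor for each library, and are listed in the order of the animals' numbers within a group. A gene is called higher or lower where the adjusted p of edgeR's quasi-likelihood test is under 0.05 and the log2 difference is larger than 0.32 in size (the fold limit). The ± after a log2 difference is an approximate standard error. It is the size of the difference divided by the square root of the test's F statistic. All 12 microglia marker genes of a fixed list were higher in the positive fraction of PBS animals than in input (median log2 difference 4.25), as were all 8 border-associated macrophage markers (median 4.02) and 9 of 10 endothelial markers (median 1.32). All 10 oligodendrocyte markers were lower there (median -2.39). Neuron markers were at about the level of input (median 0.11, 3 of 12 higher). Their summed count was 289500 to 302200 in Input PBS and 302400 to 345500 in Positive PBS. Whether transcripts near the level of input came from tagged ribosomes was not tested.

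The libraries of single animals stood apart from their group. Among the 5 Positive LPS libraries, that of animal 266 was the lowest for 32 of the 49 members tested, against 30.2% of all genes, and had the lowest summed count of the 12 microglia markers, 163100 against 186000 to 225900 in the other LPS animals. Among the Input PBS libraries, that of animal 272 was the highest for 35 of 49 members, against 37.2% of all genes. Among the Positive PBS libraries, that of animal 506 was the highest for 27 of 49 members, against 26.2% of all genes, and had the highest microglia marker sum, 263600 against 215400 to 234900. Without the library of animal 266, 13 members were called higher and 5 lower after LPS in the positive fraction. Leaving out animal 506's Positive PBS library gave 12 and 4. Leaving out animal 272's Input PBS library gave 8 and 1 in input and 34 and 0 for positive over input in PBS animals. With all 17 libraries these counts were 12 and 4, 8 and 1, and 33 and 0. Of all genes, 5019 were called without animal 266's library and 4751 without animal 506's, against 5008 with all 17. Without animal 272's library, 1472 were called in input, against 1839. For positive over input in PBS animals that fit called 6066, against 5898. In tissue, fewer cells of a type and less RNA per cell cannot be told apart.

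The first comparison asked which lysosomal transcripts were higher or lower in the positive fraction than in input. Among the members, lumen proteins were the most enriched, membrane proteins were divided and the proton pump lay close to input. In PBS animals 33 of 49 members (67.3%) were higher in the positive fraction than in input and 0 were lower, where 21.0% of all 14803 genes tested were called higher and 18.8% lower. By class, 22 of 24 lumen members, 7 of 9 membrane members, Tfeb and 3 of 15 pump members were called higher, with median log2 differences of 1.78, 0.60, 0.70 and 0.18 against 0.00 for all genes. The remaining member, Atp6v0d2, a V0 subunit isoform of restricted tissue distribution, was below the filter on low counts. It had 0, 0, 3.8 and 0.953 normalised counts in Input PBS, 1.75, 5.51, 1.23 and 2.63 in Input LPS, 19.6, 5.55, 10.8 and 2.55 in Positive PBS and 1.23, 0, 5.56, 5.71 and 0 in Positive LPS.

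**Figure D1:**
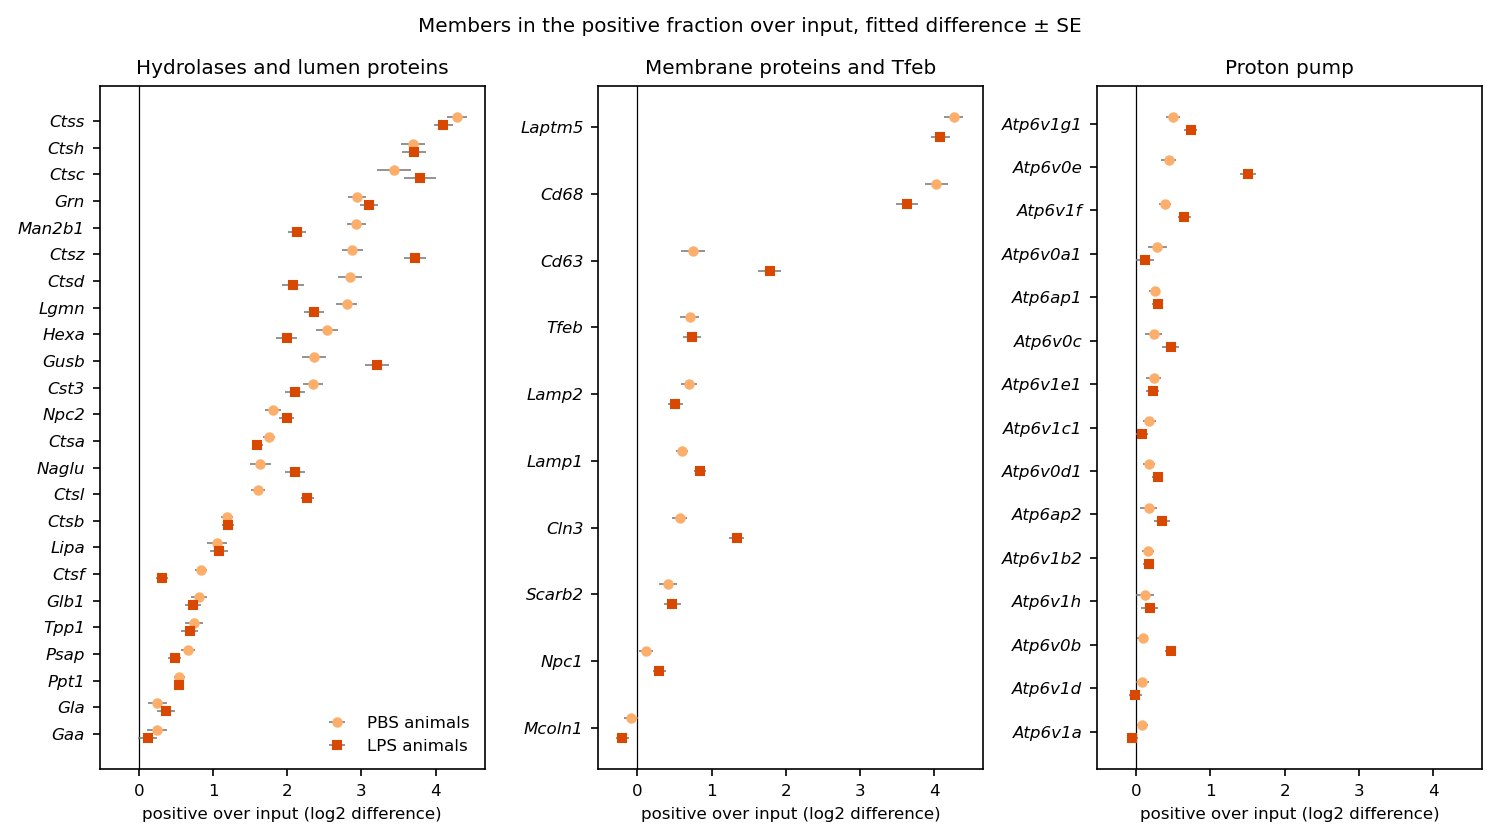
Log2 difference between the positive fraction and input for the 49 members tested (horizontal axis, fitted value with its standard error as the bar), in PBS animals (circles) and LPS animals (squares), by class. Lumen proteins spread from 0.25 to 4.29 in PBS animals, whereas the 15 pump members lay between 0.08 and 0.50.

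All 9 cathepsins among the members were higher in the positive fraction. Of cathepsins outside the members, Ctsk had means of 76.6 in Input PBS and 64.4 in Positive PBS, Ctso 1007 and 1447, and Ctsw 5.86 and 9.75. Ctss, which encodes cathepsin S, a cysteine protease known for trimming the invariant chain of MHC class II, had 2094, 2834, 2421 and 2159 normalised counts in Input PBS and 46280, 44100, 42890 and 52700 in Positive PBS. No input library came near the positive ones, and the fold was 19.6 (log2 difference 4.29 ± 0.13, adjusted p = 4.1e-14). Within single PBS animals the log2 ratio of positive to input ranged from 3.96 to 4.61. Ctsh, an aminopeptidase, had 231, 279, 254 and 233 in Input PBS and 3594, 3071, 2593 and 3632 in Positive PBS (log2 difference 3.69 ± 0.16, adjusted p = 2.87e-12). Ctsc, the dipeptidyl peptidase that activates granule serine proteases, had 210.5, 276, 170 and 219 and 2663, 2127, 2176 and 2539 (log2 difference 3.44 ± 0.23, adjusted p = 5.42e-10). The groups of both genes stood well apart, and the least enriched of the 9 cathepsins was Ctsf at 0.84 ± 0.08.

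Of the other lumen proteins, the highest were Grn (progranulin), at 2.94 ± 0.12, and Man2b1, the lysosomal alpha-mannosidase, at 2.93 ± 0.12. The proteases Lgmn, the asparaginyl endopeptidase that processes cathepsins, and Tpp1 were at 2.80 ± 0.14 and 0.75 ± 0.12, and the lipid hydrolases Lipa and Ppt1 at 1.05 ± 0.13 and 0.55 ± 0.07. The 2 lumen members that were not called were glycosidases, Gla (alpha-galactosidase A, 0.25 ± 0.13, adjusted p = 0.121) and Gaa (acid alpha-glucosidase, 0.25 ± 0.14, adjusted p = 0.144). Glb1 (beta-galactosidase, 0.81 ± 0.11) is uncertain, since Tmppe lies over it on the same strand with counts of its own that sum to 132.3% of those of Glb1.

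The membrane proteins fell into 2 levels. Laptm5, a protein of haematopoietic lysosomes, had 1104, 1491, 1381 and 1263 normalised counts in Input PBS and 24290, 24880, 24670 and 26390 in Positive PBS (log2 difference 4.26 ± 0.13, adjusted p = 2.47e-14). Cd68, the macrophage sialomucin used as a microglial activation marker, had 139.5, 187, 137 and 195 and 2685, 2780, 2553 and 2700 (log2 difference 4.03 ± 0.16, adjusted p = 4.6e-13). Both genes had positive libraries far above every input library. The general lysosomal membrane proteins were enriched far less, with Cd63, a tetraspanin, at 0.75 ± 0.16, Lamp2 at 0.69 ± 0.11, Lamp1 at 0.60 ± 0.08, Cln3 at 0.57 ± 0.10 and Scarb2, the sorting receptor of glucocerebrosidase, at 0.41 ± 0.12. The cholesterol transporter gene Npc1 (0.12 ± 0.09, adjusted p = 0.314) and the cation channel gene Mcoln1 (-0.09 ± 0.10, adjusted p = 0.459) did not pass the test.

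Tfeb was expressed at a low level. It had 356, 499, 368 and 336 normalised counts in Input PBS and 595, 683, 664 and 596 in Positive PBS (log2 difference 0.70 ± 0.13, adjusted p = 0.000268). All 4 positive libraries lay above the 4 input libraries.

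Within the proton pump, Atp6v1g1 (0.50 ± 0.09, adjusted p = 0.000295), Atp6v0e (0.44 ± 0.11, adjusted p = 0.0027) and Atp6v1f (0.39 ± 0.09, adjusted p = 0.00128) were called higher in the positive fraction. Atp6v1f had 2010, 2661, 2274 and 2063 normalised counts in Input PBS and 2746, 2999, 3096 and 2963 in Positive PBS, without overlap. The other 12 pump members ranged from 0.08 for Atp6v1a, the catalytic A subunit of V1, to 0.29 for Atp6v0a1. Neuron markers also lay near input in these libraries, as given above, and their part in the pump values was not tested. Where sizes were scaled on all 18 libraries or the deposited log2 values were used, the median of all genes moved to -0.12 and -0.13, the share of called genes that were higher fell from 52.8% to 37.6% and 37.1%, and 30 members were called, without Scarb2, Atp6v0e and Atp6v1f. Scaling on all 18 libraries includes the input library of animal 271, in which 582 genes had a count. Its part in these shifts was not tested.

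Levels can be compared between genes only per length, so counts were divided by the length of all annotated exons of a gene, which understates genes with long minor isoforms. In Positive PBS the highest member was Cst3 (cystatin C, a secreted inhibitor of cathepsins), at 123500 ± 8887 normalised counts per kb (SD, n = 4). It was followed by Ctsd (cathepsin D, an aspartic protease) at 37010 ± 3390, Ctss at 34230 ± 3217, Psap (prosaposin, the precursor of lipid-hydrolase cofactors) at 27580 ± 1597 and Atp6v0c, the proteolipid of the pump's rotor ring, at 18370 ± 2458. The levels of Ctsd and Ctss differed by less than either SD. In Input PBS the order began with Cst3 at 24310 ± 4269, Psap at 17420 ± 795.9 and Atp6v0c at 15600 ± 1707.

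The second comparison asked what LPS did to lysosomal transcripts in the positive fraction. The changes went both ways and lay mostly in the lumen class: Ctsc, Ctsl, Gusb and Ctsz rose by log2 differences of 1.40 to 1.86, while Hexa, Ctsd, Man2b1 and Cst3 fell. In all, 12 of 49 members (24.5%) were called higher after LPS and 4 (8.16%) lower, where 19.0% of all genes were higher and 14.9% lower, so the share of members called higher was close to that of all genes. By class, 7 lumen members were higher and 4 lower, 3 membrane members and 2 pump members were higher, and Tfeb was not called. The median log2 difference was 0.02 in the lumen class, 0.27 in the membrane class and 0.09 in the pump, against 0.01 for all genes.

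**Figure D2:**
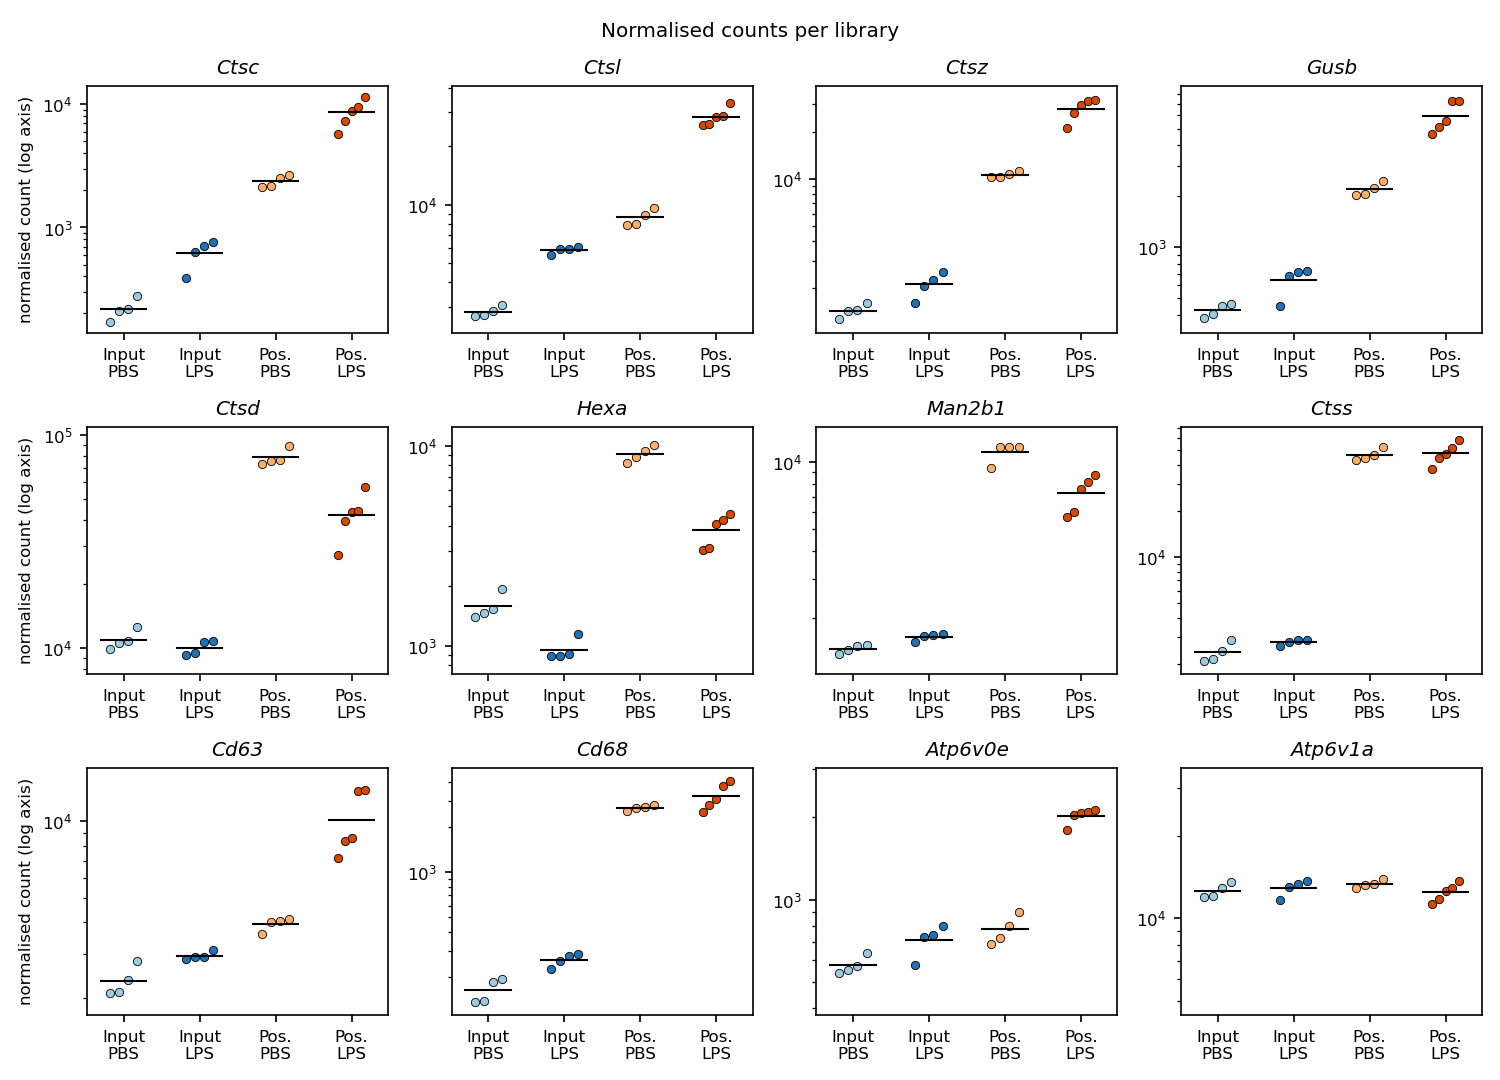
Normalised counts of 12 members in each of the 17 libraries (log axis, spanning at least a factor of 8), by fraction and treatment, sorted by value within a group, with each group's mean as a bar. Ctsc, Ctsl, Ctsz and Gusb rose after LPS in the positive fraction without overlap, Ctsd, Hexa and Man2b1 fell without overlap, and Ctss and Atp6v1a overlapped.

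Ctsc had 2663, 2127, 2176 and 2539 normalised counts in Positive PBS and 8868, 9517, 5743, 7383 and 11510 in Positive LPS. Every LPS library lay above every PBS library, and the fold was 3.62 (log2 difference 1.86 ± 0.20, adjusted p = 9.5e-07). Ctsl (cathepsin L, a cysteine endopeptidase) had 8887, 7913, 7972 and 9645 in Positive PBS and 25860, 25760, 28090, 33260 and 28550 in Positive LPS. These groups were again apart, with a fold of 3.29 (log2 difference 1.72 ± 0.09, adjusted p = 1.36e-10). Ctsz (cathepsin Z, a carboxypeptidase) had 10240, 10670, 10210 and 11210 and 26180, 31880, 20920, 29680 and 31370 (log2 difference 1.40 ± 0.13, adjusted p = 1.7e-07), and Gusb, the beta-glucuronidase, had 2232, 2061, 2023 and 2458 and 5551, 7239, 4639, 5115 and 7291 (log2 difference 1.44 ± 0.15, adjusted p = 5.59e-07). Neither gene showed an LPS library within the range of PBS. The smaller increases in the lumen class were those of Grn, with 14310, 13100, 13200 and 15930 in Positive PBS and 21520, 28420, 20270, 24060 and 26710 in Positive LPS (0.78 ± 0.11, adjusted p = 2.15e-05), of Naglu, an N-acetylglucosaminidase (0.59 ± 0.13, adjusted p = 0.0014), and of Ctsh (0.59 ± 0.14, adjusted p = 0.00242), whose groups overlapped.

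Hexa, the alpha subunit of beta-hexosaminidase A, fell the most. It had 8774, 9496, 8237 and 10170 normalised counts in Positive PBS and 3030, 4581, 4056, 3105 and 4273 in Positive LPS, a log2 difference of -1.27 ± 0.13, adjusted p = 4.89e-07. Ctsd had 75780, 73020, 76850 and 89270 in Positive PBS and 27350, 44270, 57020, 43590 and 39410 in Positive LPS (log2 difference -0.90 ± 0.14, adjusted p = 6.47e-05). Man2b1 had 11660, 11690, 9426 and 11740 and 5686, 7621, 8774, 6009 and 8133 (log2 difference -0.62 ± 0.11, adjusted p = 0.0002). For each of the 3 genes the highest LPS library lay below the lowest PBS library. Cst3 fell as well, from 98470, 101100, 110600 and 114500 in Positive PBS to 55140, 69740, 86090, 81410 and 66940 in Positive LPS (log2 difference -0.56 ± 0.12, adjusted p = 0.00119), also without overlap. Microglia markers moved in the same libraries: 7 of 12 were lower and 2 higher (median -0.46), and their summed count ranged from 215400 to 263600 in Positive PBS and from 163100 to 225900 in Positive LPS. Of the border-associated macrophage markers 4 of 8 were lower and 1 higher (summed count 5110 to 9947 in Positive PBS and 4362 to 7242 in Positive LPS). Neuron markers were lower for 6 of 12 and higher for 0 (median -0.32, summed count 302400 to 345500 and 226600 to 308100), and 4 of 10 oligodendrocyte markers were lower and 0 higher (median -0.48, 22520 to 29860 and 19370 to 29250). Of 10 endothelial markers 2 were higher and 3 lower, and of 10 astrocyte markers 2 were higher and 2 lower. The part of these cell types in the changes of the members was not tested.

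Ctss, one of the most abundant cathepsins of the positive fraction, did not pass the test. It had 46280, 44100, 42890 and 52700 normalised counts in Positive PBS and 37300, 44390, 57780, 51780 and 47210 in Positive LPS, with a log2 difference of 0.04 ± 0.11, adjusted p = 0.812. The LPS values enclosed those of PBS on both sides. A further 5 members had an adjusted p under 0.05 and a log2 difference below the fold limit, namely Ctsb (0.22 ± 0.08, adjusted p = 0.0358), Lamp1 (0.28 ± 0.08, adjusted p = 0.00939), Ctsf (-0.28 ± 0.08, adjusted p = 0.00763), Tpp1 (-0.30 ± 0.11, adjusted p = 0.0369) and Laptm5 (-0.31 ± 0.11, adjusted p = 0.0278).

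The make-up of the 9 member cathepsins shifted, while the difference in their sum was smaller than the spread between libraries. The 9 cathepsins summed to 94420 ± 7272 normalised counts per kb in Positive PBS (SD, n = 4) and 96330 ± 11360 in Positive LPS (SD, n = 5). The share of Ctsd in this sum was 39.2% ± 1.00 in Positive PBS and 20.4% ± 3.14 in Positive LPS. Ctsz made up 7.80% ± 0.368 and 20.4% ± 3.99, Ctsl 1.48% ± 0.0548 and 4.80% ± 0.559, and Ctsc 0.473% ± 0.0434 and 1.71% ± 0.516. The share of Ctss was 36.2% ± 0.807 and 36.4% ± 2.50, a difference smaller than the spread between libraries. In input, the share of Ctsd was 37.7% ± 1.17 in PBS and 30.8% ± 1.79 in LPS, and that of Ctsl 3.37% ± 0.161 and 6.23% ± 0.476 (SD, n = 4 each).

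**Figure D3:**
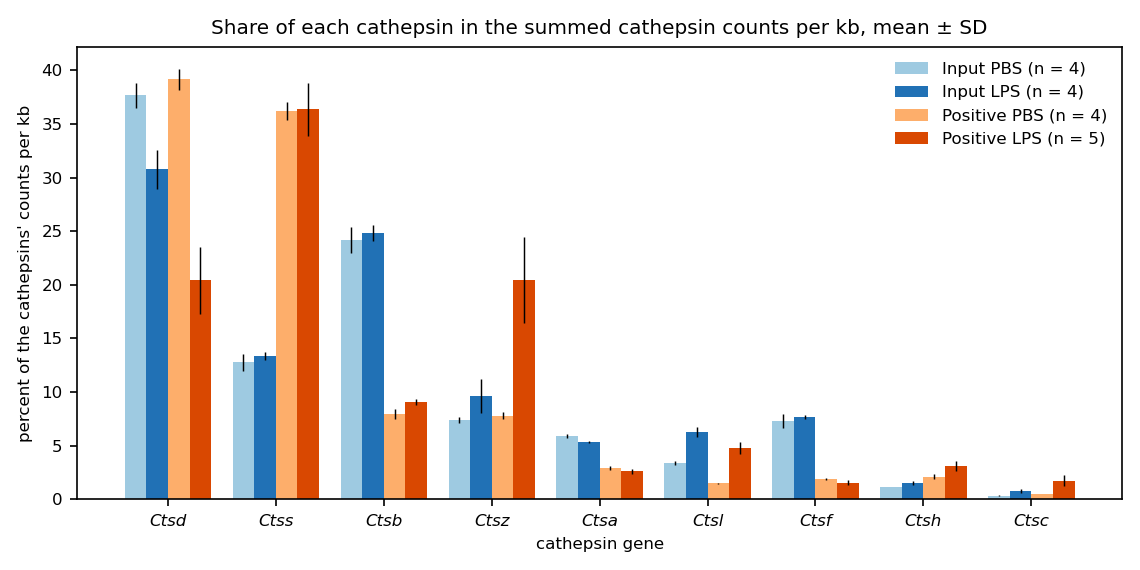
Share of each of the 9 cathepsins in their summed normalised counts per kb (vertical axis, percent, from 0), as the mean and SD of each group (bars and lines). In the positive fraction Ctsd went from 39.2% to 20.4% and Ctsz from 7.80% to 20.4%, with Ctss at 36.2% and 36.4%.

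Among membrane proteins Cd63 changed the most in the positive fraction. It had 4038, 3590, 4001 and 4119 normalised counts in Positive PBS and 7171, 8383, 13270, 13230 and 8632 in Positive LPS, a fold of 2.58 (log2 difference 1.36 ± 0.16, adjusted p = 2.09e-06). Cln3, whose loss causes a juvenile storage disease, had 671, 505, 535 and 545 and 856, 769, 823, 1002 and 863 (log2 difference 0.61 ± 0.10, adjusted p = 8.74e-05). Neither gene's groups overlapped. Lamp2 had 3426, 2886, 2815 and 4059 in Positive PBS and 3859, 3972, 4161, 4878 and 4163 in Positive LPS (log2 difference 0.35 ± 0.10, adjusted p = 0.0107), with overlapping groups, and its log2 difference fell below the fold limit (0.28 to 0.31) without Positive PBS 272 or 273 or Positive LPS 271 and with sex as a term. Cd68 did not pass the test, with 2685, 2780, 2553 and 2700 in Positive PBS and 2820, 3765, 3049, 2522 and 4033 in Positive LPS (log2 difference 0.27 ± 0.13, adjusted p = 0.0959), the LPS values lying on both sides of the PBS values.

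Of the 15 pump members tested, Atp6v0e, a small V0 subunit, stood alone in size. It had 904, 686, 726 and 802 normalised counts in Positive PBS and 2097, 2123, 1803, 2070 and 2042 in Positive LPS, a fold of 2.60 (log2 difference 1.38 ± 0.10, adjusted p = 1.32e-08). Atp6v1g1, a stalk subunit of V1, had 3444, 3307, 3543 and 3860 and 4064, 4450, 4977, 5629 and 4368 (log2 difference 0.41 ± 0.09, adjusted p = 0.00146). Both sets of LPS libraries lay above all PBS libraries. The other 13 members ranged from -0.13 (Atp6v0a1) to 0.19 (Atp6ap2), with adjusted p of 0.155 or more. Tfeb had 595, 683, 664 and 596 in Positive PBS and 551, 699, 562, 523 and 702 in Positive LPS (log2 difference -0.06 ± 0.12, adjusted p = 0.713), with overlapping groups.

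**Figure D4:**
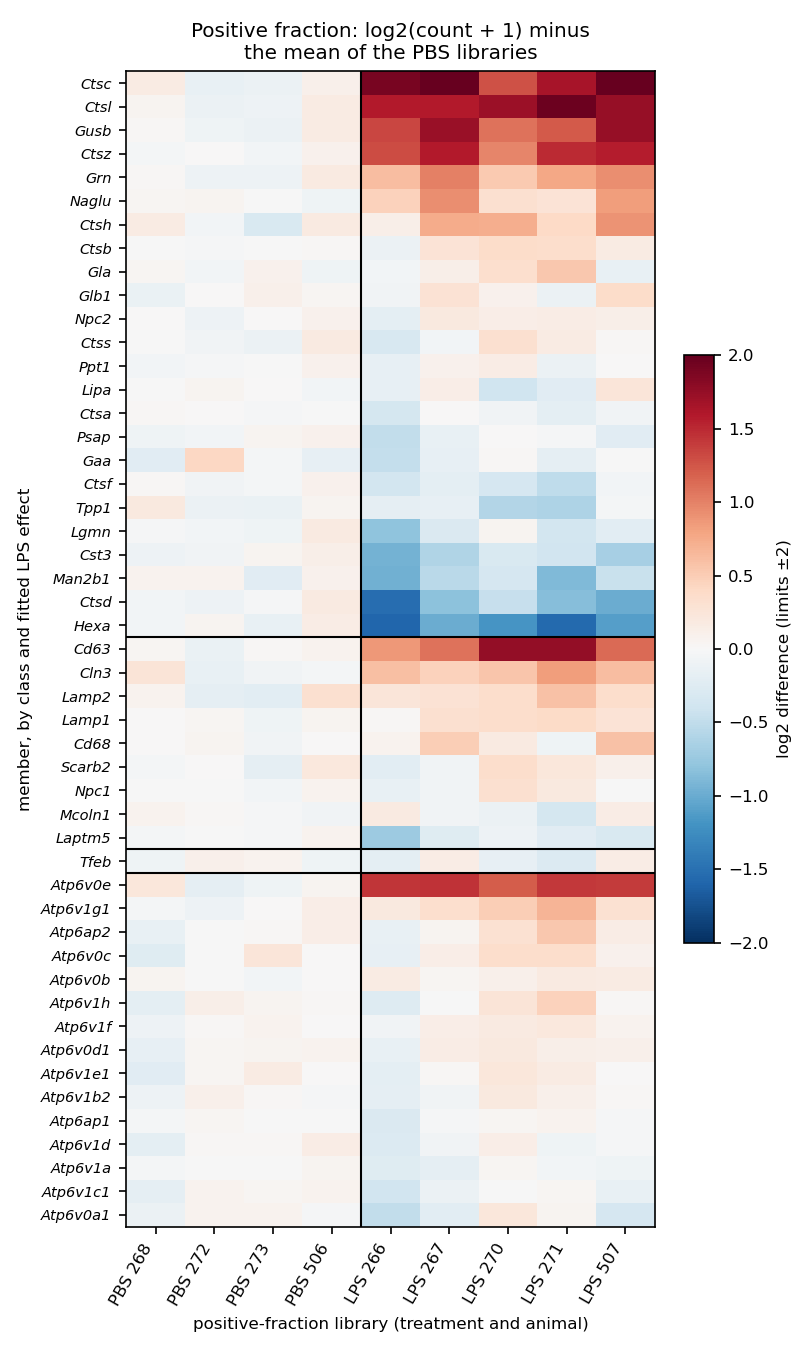
Log2(normalised count + 1) of the 49 members in each positive-fraction library, minus the mean of the 4 PBS libraries (colour, limits at ±2), with members ordered by class and by their fitted LPS effect. The increases and decreases at both ends of the lumen class recur in each of the 5 LPS libraries, and most pump members stay near 0.

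The third comparison asked what LPS did in the whole homogenate. There 8 of 49 members (16.3%) were called higher and 1 (2.04%) lower, where 7.16% of all genes were higher and 5.26% lower. The members were Ctsc, Ctsl, Grn, Gusb, Ctsh, Ctsz, Cd68 and Lamp2 among the higher ones and Hexa as the lower one, and 0 of 15 pump members was called. The median log2 difference was 0.13 in the lumen class, 0.04 in the membrane class and 0.01 in the pump, against 0.00 for all genes. In these libraries 5 of 12 microglia markers were lower and 2 higher (median -0.20, summed count 12060 to 15560 in Input PBS and 10910 to 15320 in Input LPS), and 8 of 10 oligodendrocyte markers were lower (median -0.84, 102300 to 160700 and 65370 to 93270). Endothelial markers were higher for 3 of 10 and lower for 1 (median 0.45, 2787 to 4166 and 4152 to 6119), astrocyte markers for 3 and 1 of 10 (median -0.06, 111400 to 122000 and 108500 to 113100), and 0 of 12 neuron markers was called by edgeR. Their part in the changes of the members was not tested.

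In input Ctsc had 210.5, 276, 170 and 219 normalised counts after PBS and 707, 632, 387 and 761 after LPS (log2 difference 1.51 ± 0.22, adjusted p = 9.5e-05). Ctsl had 2687, 3038, 2724 and 2860 and 6061, 5520, 5959 and 5933 (log2 difference 1.05 ± 0.09, adjusted p = 2.38e-07). All LPS values of both genes exceeded all PBS values. Grn had 1790, 2034, 1814 and 1715 in Input PBS and 2853, 3262, 2321 and 2863 in Input LPS (log2 difference 0.62 ± 0.11, adjusted p = 0.00108), and Hexa had 1526, 1932, 1399 and 1459 and 891, 1141, 914 and 886 (log2 difference -0.72 ± 0.14, adjusted p = 0.00141). These 2 genes moved without overlap, Grn up and Hexa down. Cd68 had 139.5, 187, 137 and 195 in Input PBS and 255, 276, 226 and 285 in Input LPS (log2 difference 0.66 ± 0.15, adjusted p = 0.00559), and Lamp2 had 1886, 2075, 1952 and 2236 and 3304, 2744, 2901 and 2849 (log2 difference 0.53 ± 0.11, adjusted p = 0.00229), both without overlap. Gusb had 383, 464, 407 and 454 in Input PBS and 679.8, 713, 454 and 727 in Input LPS (0.59 ± 0.16, adjusted p = 0.0158), and Ctsz had 1272, 1617, 1452 and 1433 and 2081, 2536, 1614 and 2248 (0.55 ± 0.13, adjusted p = 0.00845). For both, 1 LPS library, that of animal 270, lay within the range of PBS. With the animal as a block, Cd68 (adjusted p = 0.0648) and Ctsh (adjusted p = 0.16 against 0.0188) were not called. That block fit of the LPS effects used limma's voom in place of edgeR's test, with a within-animal correlation of 0.445, so both the test and the block changed. What in that fit removed the calls was not tested.

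Ctsd, which fell in the positive fraction, had 9920, 12540, 10750 and 10590 normalised counts in Input PBS and 9238, 10640, 10770 and 9451 in Input LPS (log2 difference -0.13 ± 0.15, adjusted p = 0.623), with overlapping groups. Cd63 had 2106, 2806, 2356 and 2127 and 3104, 2920, 2921 and 2850 (log2 difference 0.33 ± 0.16, adjusted p = 0.189), which did not overlap and did not pass the test. Atp6v0e had 555, 637, 539 and 572 in Input PBS and 799, 742, 577 and 732 in Input LPS (0.31 ± 0.11, adjusted p = 0.0624), and Tfeb had 359, 391, 341 and 366 in Input LPS (-0.10 ± 0.13, adjusted p = 0.678). Both genes had overlapping groups and were not called in input.

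Neutrophils and monocytes also express cathepsins. Of 12 markers of these cells, 8 passed the filter, of which 4 were higher and 0 lower in input (summed count of all 12 706.6 to 1074 in Input PBS and 932 to 1938 in Input LPS), and 4 were higher and 2 lower in the positive fraction (2068 to 2362 in Positive PBS and 1222 to 2268 in Positive LPS). The 4 called higher in each fraction were S100a8, S100a9, Ngp and Retnlg. S100a8 had mean normalised counts of 77.8 in Input PBS and 313.5 in Input LPS, and of 15.9 in Positive PBS and 414.8 in Positive LPS, and S100a9 had 107.3 and 396.5 in input and 18.5 and 71.8 in the positive fraction. Ccr2 and Csf3r were the 2 lower ones in the positive fraction. Csf3r alone had mean normalised counts of 1827 in Positive PBS and 973 in Positive LPS, the largest part of the summed count in that fraction. In Input PBS the largest parts were Cxcr2 at 383.9 and Csf3r at 219.4. The summed counts therefore do not follow the 4 genes called higher. In PBS animals 3 of the 8 markers tested were higher in the positive fraction than in input and 4 were lower. Mean counts in Input PBS and Positive PBS were 219.4 and 1827 for Csf3r and 383.9 and 140.2 for Cxcr2. Which cells these 2 transcripts came from was not tested. Ly6g was listed at 0 in all 17 libraries, as was the pump gene Atp6v0a2. The part of these cells in the changes of Ctsc, Ctsz and the other members was not tested.

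The fourth comparison tested whether LPS had different effects in the fractions, as an interaction term. The difference was called for 10 of 49 members, 7 with a greater value in the positive fraction (14.3%, against 5.46% of all genes) and 3 with a lower value (6.12%, against 1.42% of all genes). The 7 were Atp6v0e, Cd63, Gusb, Ctsz, Cln3, Ctsl and Atp6v0b, and the 3 were Man2b1, Ctsd and Ctsf. The differences of greatest size were those of Atp6v0e (1.07 ± 0.15, adjusted p = 0.000215) and Cd63 (1.04 ± 0.22, adjusted p = 0.00695). Gusb (0.85 ± 0.21, adjusted p = 0.0186), Ctsz (0.85 ± 0.18, adjusted p = 0.00733) and Ctsl (0.66 ± 0.12, adjusted p = 0.00216) rose in both fractions and more in the positive one. Cln3 differed by 0.77 ± 0.14, adjusted p = 0.00296, with 397, 362, 385 and 378 normalised counts in Input PBS and 363, 326, 334 and 342 in Input LPS.

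**Figure D5:**
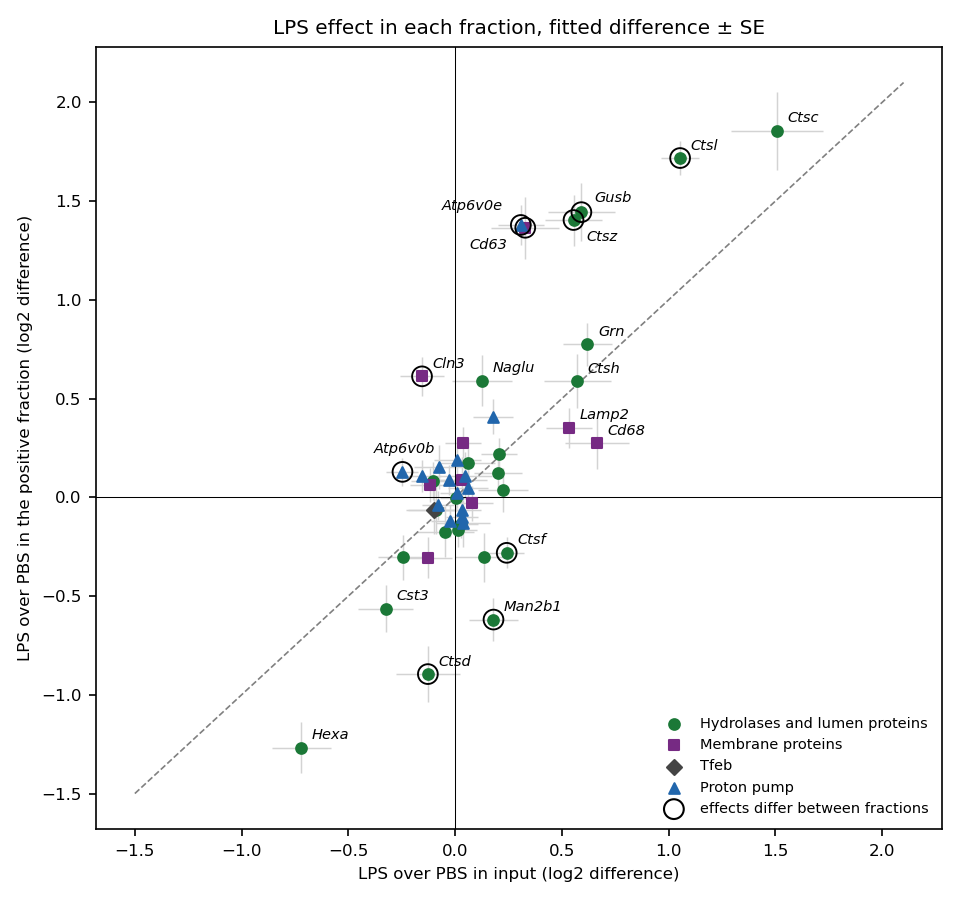
Log2 difference between LPS and PBS in input (horizontal axis) and in the positive fraction (vertical axis) for the 49 members tested, with standard errors as lines, classes as symbols and equality as the dashed line. Rings mark the 10 members whose effects differed between fractions, such as Atp6v0e and Cd63 above the line and Ctsd and Man2b1 below it.

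On the lower side, Man2b1 had 1497, 1518, 1446 and 1378 normalised counts in Input PBS and 1564, 1665, 1682 and 1700 in Input LPS, which did not overlap and did not pass the test (0.18 ± 0.12, adjusted p = 0.336). Its LPS effect was lower in the positive fraction by a log2 difference of -0.80 ± 0.16, adjusted p = 0.00466. For Ctsd the difference was -0.77 ± 0.20, adjusted p = 0.0279. Ctsf, a cysteine protease, had 1999, 1917, 2012 and 1903 in Input PBS and 2189, 2463, 2239 and 2368 in Input LPS, against 3555, 3331, 3415 and 3694 in Positive PBS and 2712, 3068, 2776, 2470 and 3368 in Positive LPS (difference -0.52 ± 0.11, adjusted p = 0.00764). Its effects were of opposite sign, and neither was called on its own. Atp6v0b, a V0 proteolipid subunit, was the same kind of case, with 5067, 6068, 5365 and 4640 in Input PBS, 4334, 4705, 4353 and 4425 in Input LPS, 5838, 5584, 5398 and 5663 in Positive PBS and 6265, 5783, 6017, 6358 and 6306 in Positive LPS (difference 0.38 ± 0.10, adjusted p = 0.0327). The differences of Hexa (-0.55 ± 0.19, adjusted p = 0.0939), Ctsc (0.35 ± 0.29, adjusted p = 0.564), Grn (0.16 ± 0.16, adjusted p = 0.654) and Tfeb (0.04 ± 0.18, adjusted p = 0.945) did not pass the test. With the animal as a block, Hexa and Naglu were called as well, 12 members in all. Without animals 506 and 507, whose numbers lie far from those of the other 7, the call was made for 4 members, Ctsl, Cd63, Atp6v0e and Ctsf. Of all genes, 1018 were called in the main fit, 1915 with the block and 323 without these 2 animals.

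In LPS animals 36 of 49 members (73.5%) were higher in the positive fraction than in input and 0 were lower, against 27.6% and 25.8% of all genes. The class medians were 2.04 in the lumen, 0.84 in the membrane and 0.29 in the pump, with 22, 7 and 6 members called, and Tfeb was at 0.74 ± 0.12. Ctss was the most enriched at 4.10 ± 0.13, next to Laptm5 at 4.08 ± 0.12, Ctsc at 3.79 ± 0.22 and Ctsz at 3.72 ± 0.14. Cd68 was at 3.64 ± 0.15 and Cd63 at 1.78 ± 0.16. Behind these values, Ctss had 2599, 2867, 2789 and 2857 normalised counts in Input LPS, and Laptm5 had 1063, 1281, 1208 and 1239 in Input LPS and 15210, 21130, 23410, 21450 and 20220 in Positive LPS. Atp6v1f had 1902, 2114, 2038 and 2044 in Input LPS and 2799, 3250, 3323, 3418 and 3108 in Positive LPS, and Atp6v1g1 had 2433, 2849, 2467 and 2237 in Input PBS and 2827, 2848, 2892 and 2718 in Input LPS. Every Positive LPS library of the 4 genes lay above every input library. The 6 pump members called were Atp6v0e (1.51 ± 0.10, adjusted p = 6.6e-10), Atp6v1g1 (0.74 ± 0.09, adjusted p = 1.7e-06), Atp6v1f (0.65 ± 0.08, adjusted p = 2.51e-06), Atp6v0c (0.47 ± 0.11, adjusted p = 0.00145), Atp6v0b (0.46 ± 0.07, adjusted p = 2.27e-05) and Atp6ap2 (0.35 ± 0.11, adjusted p = 0.00793). This comparison shares its libraries with the LPS effects above and is not independent of them. With the animal as a block, Gla and Atp6ap2 fell below the fold limit (log2 difference 0.25 and 0.24) and Ctsf passed it (0.36). Under scaling on all 18 libraries or the deposited log2 values the median of all genes was -0.11 and -0.14, the share of called genes that were higher was 43.2% and 41.2% in place of 51.7%, and 34 members were called.

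Promoter sequences were matched for 42 of the 50 members, with 50 start sites, in the RefSeq promoter table of build GRCm38.p6, the same assembly as the mm10 of the files. Both strands of the 300 bases around each start (250 before, 50 after) were searched for the E-box CACGTG, for TCACGTGA, the core of the CLEAR element that TFEB binds, which contains the E-box, and for GAGGAAGT, a motif of the myeloid factor PU.1. The E-box was in 16 of 50 member promoters (32.0%) and in 7.15% of all 32851 promoters of the table. The CLEAR core was in 8 (16%) against 0.974%, and the PU.1 motif in 4 (8%) against 3.20%. A match is a description of letters and does not show binding.

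The 8 members with the CLEAR core were Atp6v0d1, Atp6v0e, Atp6v1a, Cln3, Ctsa, Ctsd, Gla and Mcoln1. In the positive fraction LPS raised 2 of them (Atp6v0e, Cln3), lowered 1 (Ctsd), and left 5 without a call, which is near the 19.0% higher and 14.9% lower among all genes. The 4 with the PU.1 motif were Ctsc, Ctss, Gla and Gusb. Of these Ctsc and Gusb rose and 2 were not called, too few genes to set against the 19.0% higher among all genes. In the 250 bases before the start alone, the PU.1 motif was in 2 of 50 member promoters (4.00%), against 2.44% of all promoters. The sequences printed next are shown because they set members with and without an LPS effect side by side: the gene that rose the most, a pump subunit whose effect differed between fractions, and 2 uncalled members with several matches. Each runs 5′ to 3′ on the gene's own strand, ends before the first exon in GENCODE M21 and before the gene's start in the deposited table, and has the motif matches in capitals.
Ctsc, chr7:88277835-88278084, plus strand, with 1 PU.1 match on the opposite strand (ACTTCCTC): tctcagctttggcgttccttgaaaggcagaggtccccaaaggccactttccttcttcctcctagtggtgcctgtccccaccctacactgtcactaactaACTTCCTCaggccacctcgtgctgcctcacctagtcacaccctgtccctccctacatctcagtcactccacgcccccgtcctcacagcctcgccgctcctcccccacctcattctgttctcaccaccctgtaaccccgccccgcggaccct
Atp6v0b, chr4:117887334-117887579, minus strand, with 2 E-boxes: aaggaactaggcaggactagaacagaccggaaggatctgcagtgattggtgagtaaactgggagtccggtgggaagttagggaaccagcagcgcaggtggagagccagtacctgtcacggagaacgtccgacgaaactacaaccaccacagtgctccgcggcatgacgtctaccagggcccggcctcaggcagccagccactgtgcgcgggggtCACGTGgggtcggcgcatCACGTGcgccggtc
Gla, chrX:134601126-134601255, minus strand, with 2 CLEAR cores and 1 PU.1 match on the opposite strand: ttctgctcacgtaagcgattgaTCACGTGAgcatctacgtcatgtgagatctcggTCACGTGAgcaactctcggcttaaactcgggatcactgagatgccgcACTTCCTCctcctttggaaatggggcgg
Lamp1, chr8:13158911-13159134, plus strand, with 2 E-boxes: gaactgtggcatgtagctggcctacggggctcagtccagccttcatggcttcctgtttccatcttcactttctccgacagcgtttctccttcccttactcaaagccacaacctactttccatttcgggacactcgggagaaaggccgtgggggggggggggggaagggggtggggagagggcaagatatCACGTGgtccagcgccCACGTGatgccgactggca
Gla, with both kinds of motif, had 604, 564, 621 and 551 normalised counts in Positive PBS and 561, 631, 735, 850 and 525 in Positive LPS (log2 difference 0.17 ± 0.12, adjusted p = 0.265), with overlapping groups. Lamp1, with E-boxes next to its start, had 15130, 15420, 14190 and 15600 and 15350, 18900, 19330, 19560 and 18180 and did not reach the fold limit. Its promoter held 4 E-boxes, listed at 15, 28, 45 and 61 bases before the start. The printed stretch ends 26 bases before the start and shows only the 2 farther ones.

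Further lysosomal genes were taken from 4 fixed lists, whose counts are to be read against 19.0% of all genes called higher and 14.9% lower after LPS in the positive fraction. For input these shares were 7.16% and 5.26%. Of 35 other hydrolases and lumen proteins tested, 14 were higher and 5 lower after LPS in the positive fraction (median 0.28) and 2 were higher and 0 lower in input (median 0.08). The largest increases in the positive fraction were those of Cst7 (cystatin F, an inhibitor of cathepsin C and other cathepsins, 2.78 ± 0.24) and Acp5 (tartrate-resistant acid phosphatase, 1.83 ± 0.47), and the largest decreases those of Pla2g15 (a lysosomal phospholipase, -1.06 ± 0.14) and Arsb (arylsulfatase B, -0.72 ± 0.11). In input Cst7 (2.22 ± 0.36) and Galns (0.47 ± 0.12) rose. Cst7 was low in Positive PBS, at a mean of 82.8 normalised counts, and at 569 in Positive LPS.

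Of 23 other membrane proteins tested, 5 were higher and 1 lower in the positive fraction, led by the ion channel Tpcn2 (2.21 ± 0.21) and the metal transporter Slc11a1 (1.64 ± 0.16), with Tpcn1 (-1.01 ± 0.09) the lower one. In input Slc11a1 (1.08 ± 0.18) and Gpnmb (0.79 ± 0.21) were higher and Tpcn1 (-0.51 ± 0.10) was lower. The shares of this list and of the sorting list called in the positive fraction were near or below those of all genes. The related channels Tpcn1 and Tpcn2 moved in opposite directions in the positive fraction. Of 5 other pump subunits tested, Tcirg1, the a3 subunit of V0 that is abundant in osteoclasts, rose in the positive fraction (1.20 ± 0.11) and also in input (0.48 ± 0.11). The other 4 were not called. Of 27 genes for sorting and assembly, 5 were higher and 2 lower in the positive fraction, led by M6pr (the small mannose-6-phosphate receptor, 1.09 ± 0.10) and Nagpa (0.51 ± 0.10), with Mitf (-0.46 ± 0.12) and Rragd (-0.40 ± 0.10) lower, and 1, Vps11 (0.36 ± 0.09), was higher in input. In PBS animals, positive over input was called higher for 25 and lower for 2 of the 35 hydrolases and lumen proteins (median 0.68). For the 23 membrane proteins it was 6 and 1 (median 0.07), less than among the members. For the 5 pump subunits it was 2 and 2 (median 0.01), and for sorting and assembly 7 and 3 (median 0.23). The shares of all genes were 21.0% higher and 18.8% lower.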

How the data were processed

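TRAP RNAseq of 9 mice (input and positive fraction each) was deposited as 1 table of 36172 genes. According to the methods, the authors trimmed reads from strand-specific poly-A libraries and used Strand NGS to align them to mm10, and the file header names RefSeq as the gene models. The authors deposited estimated counts per gene, of which 81.6% of nonzero values were not whole (tolerance 1e-06), and log2 values that the authors normalised with DESeq and set to a baseline. All columns matched a sample.

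Counts were rounded and scaled by median-of-ratios size factors (0.766 to 1.32) on 15766 genes over 17 libraries. Genes over 20 normalised counts in every library of at least 1 group were tested (14803). The test was edgeR 4.0.16's quasi-likelihood test in R 4.3.3, with 1 mean for each of the 4 groups (13 residual degrees of freedom) and Benjamini-Hochberg adjustment over all genes tested. The alternatives included DESeq2 1.42.0, limma 3.58.1, TMM scaling, other filters and libraries, sex as a term and the animal as a block. The block fit used limma's voom with a within-animal correlation for the LPS effects. For the other comparisons it used edgeR with a term for each animal. The 2 fractions came from the same animals, and their deviations from the group means correlated (r of 0.16 to 0.519 in 8 animals, across genes). Within a group each library came from a different animal. The main test had no term for the animal, so comparisons between fractions treated the 2 libraries of an animal as independent.

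The members and gene lists were chosen with earlier results of these data known. Values in every library were given, by rule, for up to 3 called members in each direction per comparison and class, for Tfeb and for members under the filter, and up to 2 called genes per direction were named from the other lysosomal lists. Further members were named after their values were seen.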

Additional observations from a re-analysis of the deposited data

Results flagged for a closer look

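Of 88 groups of 4 or 5 libraries tested for a library far from the rest, 3 held one, and chance gives about 1 in 20. For Hexa, the Input LPS library of animal 267 was at 1141 normalised counts and the others at 886.2 to 914.3. For Man2b1, the Positive PBS library of animal 273 was at 9426 and the others at 11660 to 11740. For Atp6v0e, the Positive LPS library of animal 270 was at 1803 and the others at 2042 to 2123.

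The interaction term found 10 members whose LPS effect differed between the fractions. The log2 differences, positive minus input, were 1.07 for Atp6v0e, 1.04 for Cd63, 0.85 for Gusb, 0.85 for Ctsz, 0.77 for Cln3, 0.66 for Ctsl and 0.38 for Atp6v0b. They were -0.80 for Man2b1, -0.77 for Ctsd and -0.52 for Ctsf.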

How the results depend on the processing

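Of the called members, 15 of 16 for LPS in the positive fraction, 5 of 9 in input, 30 of 33 and 34 of 36 for positive over input in PBS and LPS animals, and 3 of 10 for the difference between fractions were called under every alternative run, and 0 changed sign. Leaving out 1 library at a time gave 16 to 18, 7 to 10, 33 to 34, 35 to 40 and 8 to 11 called members. Over all genes these fits called 4432 to 5120, 1452 to 1979, 5297 to 6066, 7447 to 8127 and 749 to 1263. The main fit called 5008, 1839, 5898, 7908 and 1018 genes. With the animal as a replicate block the counts were 16, 7, 33, 35 and 12 members, and 4885, 1982, 6660, 8200 and 1915 of all genes. The first 2 of these block counts came from limma's voom and the others from edgeR. Without animals 506 and 507 the count for the difference between fractions was 4 members and 323 of all genes, and this fit has fewer animals. Ctsd lost that call in 6 of the fits without 1 library (adjusted p up to 0.0644), and Atp6v0b in 12 settings (adjusted p up to 0.129). In input, Ctsh lost its call without Input PBS 268 or 506 or Input LPS 507 (adjusted p up to 0.0573), and Gusb without Input PBS 268 or Input LPS 507 (up to 0.0512).

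Some uncalled log2 differences changed sign. For LPS in the positive fraction these were Ctss (-0.0379 to 0.1182 over the fits without 1 library), Mcoln1 (0.0284 on scaling over all 18 libraries, 0.006 from the log2 values as deposited, -0.0823 to 0.045 without 1 library) and Tfeb (0.0054 with sex as a term). Tfeb in input ranged from -0.1628 to 0.0409 and its difference between fractions from -0.1048 to 0.0987 without 1 library. For positive over input in PBS animals, all 18 libraries and the deposited values gave -0.0116 and -0.0098 for Npc1 and -0.0492 and -0.046 for Atp6v1a. The input library of animal 271, which is among the 18, had a count for 582 genes. The causes were not tested. Atp6v0d2 was under the filter and has no value in the fit described.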
